A study of Arabidopsis thaliana with 8 samples.

Results

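UDP-glycosyltransferases (UGTs) were followed in shoots of Arabidopsis thaliana with and without heat, in wild type and in a knockout of HSA32. The 47 genes were those whose single gene symbol in the array annotation began with UGT and a family number from 71 to 92, with no filter on signal. They came from 22810 probe sets, each gene had 1 probe set, and they fell into 21 families named by number and first letter. UGTs move a sugar from a UDP-sugar to a small acceptor such as a flavonoid, a hormone, a lignin precursor or a foreign compound. The sugar usually makes the acceptor more soluble and less active, and sends it towards storage or transport. In leaves the family is known for flavonol and sinapate glycosides, for storage forms of plant hormones and for detoxification. Shoots came from Col-0 plants of 15 d, which had spent 2 h at 37 °C (heat) or at 22 °C as controls. The knockout carried the T-DNA insertion GABI-268A08 in HSA32 (At4g21320), also in the Col-0 background, so it stands for 1 allele. Each of the 4 groups (wild-type control, wild-type heat, knockout control, knockout heat) had 2 one-colour arrays as biological replicates, with RNA from pools of about 100 plants for each treatment.

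Signals are the deposited intensities on a linear scale, and all arrays had a trimmed mean of about 500 (500.04 to 500.07). Median signals of all probe sets lay between 131 and 181, and 16 of the 47 genes averaged below 29.1, the 20th percentile of all values. That percentile was added to each signal before the log, so folds of dim genes are understated. HSA32, the targeted gene, read 657 and 230.0 in wild-type controls, 23175 and 9240 in heated wild type, 1125 and 1247 in knockout controls and 378 and 589 in the heated knockout. Both heated wild-type arrays lay above the other 6, and where its probe set lies relative to the insertion was not analysed here. For replicate 1 of the wild-type controls the title, which was followed, gives a control, while its source text mentions heat only. Both arrays of wild-type replicate 1 stood apart from the rest in 2 genes outside the family. The root and hypocotyl marker PYK10 read 3231 and 2095 on them and 4965 to 9286 on the other 6 arrays, and the glucosinolate gene BCAT4, an aminotransferase of methionine chain elongation, read 472 and 501 against 2611 to 8598. Results are therefore also given without these 2 arrays. Each wild-type group then holds 1 array, all residual spread comes from the 4 knockout arrays, and the lone wild-type arrays are assumed to vary like them. RCA (Rubisco activase) read higher on every heated array than on every control array, without a call in the mean heat response (limma adjusted p = 0.11), and its part in the results was not tested. Of the marker lists, 1 of 9 leaf genes (RCA, 16090 to 36539), 3 of 10 root genes, 1 of 5 seed genes and 0 of 5 flower genes had a named probe set. The root gene EXPA18 read 23.3 to 144 and the seed gene PAP85 read 56.6 to 148, both without a call for heat. The root gene EXPA7 was too dim to be tested, at 57.6 to 96.8 in wild type, 79.1 and 27.2 in knockout controls and 16.6 and 11.3 in the heated knockout. These root genes did not share the pattern of PYK10. On wild-type replicate 1 EXPA7 read 61.2 and 57.6, within its range on the other 6 arrays (11.3 to 96.8). EXPA18 read 91.5 in that control, within its range on the other 6 (78.6 to 144), and 23.3 after heat, its lowest value. In shoot RNA, fewer cells of a type and less RNA per cell cannot be told apart.

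A small number of UGT genes were called for heat, in both directions. Averaged over the genotypes, 2 genes rose, UGT76E11 (3.77-fold) and UGT73C1 (4.48-fold on the offset scale). Another 4 fell, UGT76C1 (2.60-fold), UGT85A2 (2.85-fold), UGT71C5 (2.50-fold) and UGT72B3 (1.89-fold). These are 6 of the 27 genes that passed the filter on dim signal, or 22.2%, and 17.3% of all probe sets tested passed there, so the family's share lay near the background. By direction, 2 of 27 rose (7.41%, against 5.25% of all) and 4 of 27 fell (14.8%, against 12.0% of all). At an unadjusted p under 0.05, UGT72E1 was added, giving 7 of 27 against 33.3% of all. The same 2 genes lay higher and the same 4 lower on all heated arrays without overlap, where 7.29% and 18.7% of all probe sets did so. The calls come from limma with Benjamini-Hochberg adjustment over 15919 probe sets, and 20 of the 47 genes were too dim to be tested. UGT73C1 passed the filter only through its heated arrays, so its presence among the tested genes is tied to its rise. Leaving it aside, 5 of 26 genes passed (19.2%), of which 1 rose (3.85%) and 4 fell (15.4%). Without the 2 arrays of wild-type replicate 1, UGT72B3 left the list and UGT72E1 and UGT85A4 joined it, for 7 calls (23.7% of all probe sets passed then).

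**Figure D1:**
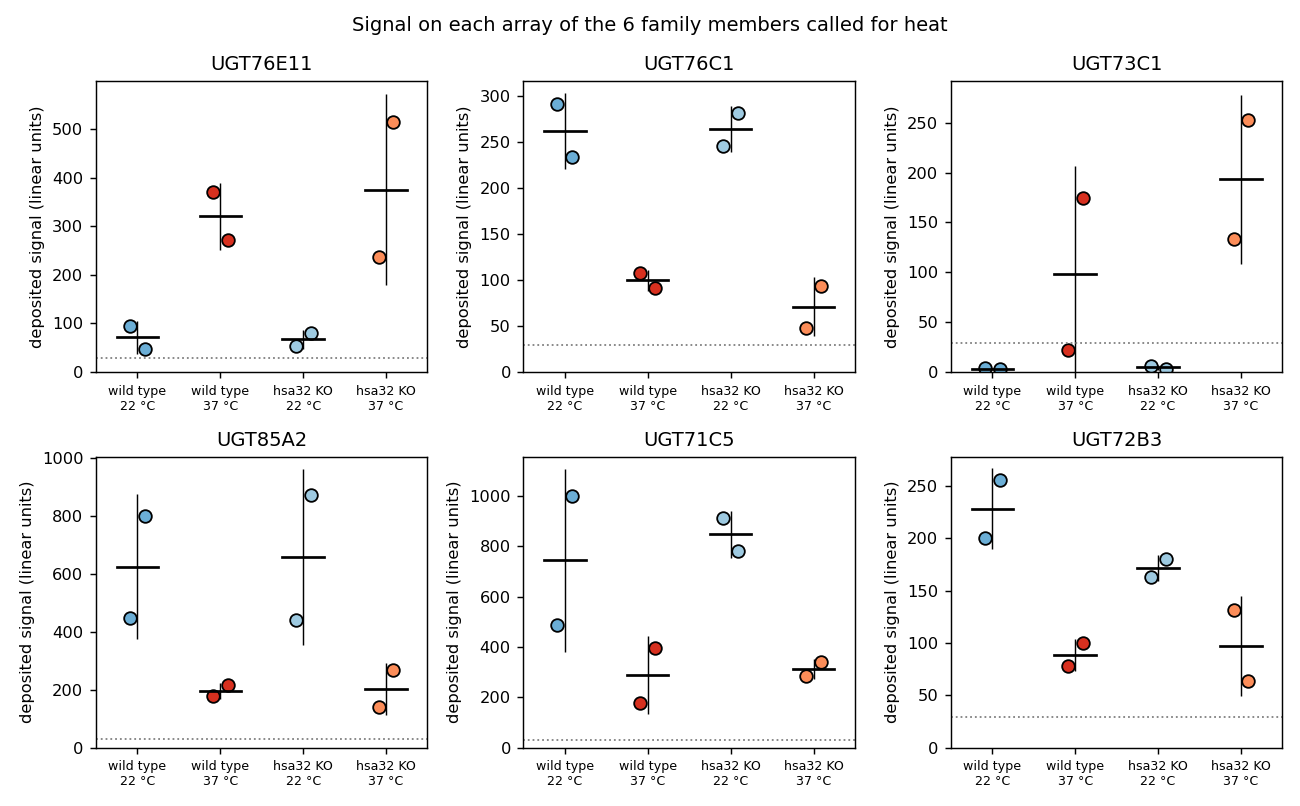
Deposited signal (linear units, axis from 0) of the 6 UGT genes called for heat, on each of the 8 arrays. Points are arrays, with replicate 1 on the left, bars are group means of 2 arrays, thin lines are ± 1 SD cut off at 0, and the dotted line is the offset of 29.1. UGT76E11 and UGT73C1 are higher on every heated array than on every control array, and the other 4 genes are lower on every heated array.

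UGT76E1 and UGT76E2 were listed here for jasmonates, but UGT76E11 (AT3G46670), of the same family, had no acceptor listed. Its signal was 95.4 and 47.2 in wild-type controls, 369 and 272 in heated wild type, 53.1 and 81.0 in knockout controls and 236 and 514 in the heated knockout. All 4 heated arrays lay above all 4 control arrays. The log2 change was 1.83 ± 0.44 in wild type, which did not pass (limma adjusted p = 0.074), and 2.00 ± 0.44 in the knockout, which did (adjusted p = 0.033). Over both genotypes it rose by 1.91 ± 0.31 (adjusted p = 0.005), and by 1.99 without the 2 arrays of wild-type replicate 1 (adjusted p = 0.0053).

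UGT73C1 (AT2G36750), of a group known for conjugating foreign compounds, was close to the bottom of the scale in controls. It read 3.90 and 2.80 in wild-type controls and 6.30 and 2.90 in knockout controls. After heat it read 22.3 and 174.6 in wild type and 133 and 253 in the knockout. Every heated array was above every control array, and wild-type heat replicate 1 was the lowest heated one, still under the offset. The log2 change was 1.66 ± 0.61 in wild type (limma adjusted p = 0.22) and 2.67 ± 0.61 in the knockout (adjusted p = 0.038). The mean response of 2.16 ± 0.43 passed (adjusted p = 0.012). Without wild-type replicate 1 the wild-type change was 2.67 (adjusted p = 0.047), a value of 1 heated against 1 control array with the spread of the knockout arrays. Its size follows the offset, since control signals lay far below 29.1. Its call in the mean response was lost without knockout control replicate 2 (adjusted p = 0.051).

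UGT76C1 (AT5G05870) encodes an enzyme that attaches glucose to ring nitrogens of cytokinins. Its signal was 290.6 and 233 in wild-type controls and 246 and 282 in knockout controls. After heat it was 108 and 91.4 in wild type and 48.1 and 93.4 in the knockout. The heated arrays lay below the control arrays in each genotype without overlap. The log2 change was -1.17 ± 0.34 in wild type, which did not pass (limma adjusted p = 0.13), -1.59 ± 0.34 in the knockout (adjusted p = 0.031) and -1.38 ± 0.24 over both (adjusted p = 0.007). The gene next to it, UGT76C2 (AT5G05860), which acts on the same hormones, read 200.1 and 153 in wild-type controls, 143 and 224 in heated wild type, 147 and 199 in knockout controls and 228 and 237 in the heated knockout. Its groups overlapped in wild type, and the mean change of 0.21 ± 0.24 did not pass (limma adjusted p = 0.58).

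UGT71C5 (AT1G07240), which transfers glucose to abscisic acid, was lower after heat. It read 488 and 1001 in wild-type controls, 179 and 398 in heated wild type, 914 and 782 in knockout controls and 286 and 340.5 in the heated knockout. Its mean change was -1.32 ± 0.32 (limma adjusted p = 0.025), and -1.31 without wild-type replicate 1 (adjusted p = 0.0075). This call was lost when arrays were scaled by quantiles or centred on their medians, without wild-type control replicate 2, and without any single knockout array. The other 2 genes listed for abscisic acid, UGT71B6 and UGT71B8, read at most 38.4 and 23.7 on any array and were not tested.

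UGT85A2 (AT1G22360) and UGT72B3 (AT1G01420) had no acceptor listed here. UGT85A2 read 449 and 802 in wild-type controls, 178 and 216 in heated wild type, 443 and 873 in knockout controls and 141 and 267 in the heated knockout, a mean change of -1.51 ± 0.32 (limma adjusted p = 0.016). Control and heated arrays did not overlap. On the linear scale the 2 control arrays of each genotype lay farther from each other than the lower of them lay from the nearer heated array. On the log2 scale with the offset this held only in the knockout. Leaving out 1 array ended the call in 3 cases, namely replicate 2 of the wild-type controls, replicate 2 of the knockout controls and replicate 1 of the heated knockout. UGT72B3 read 201 and 256 in wild-type controls, 78.1 and 99.5 in heated wild type, 162 and 180.4 in knockout controls and 131 and 63.6 in the heated knockout. Its mean change was -0.92 ± 0.26 (limma adjusted p = 0.04). This call was lost under quantile scaling and median centring, and with no filter on dim probe sets (adjusted p = 0.075). It was also lost with the replicate numbers of the labels as a block (limma adjusted p = 0.065) and without wild-type replicate 1. Leaving out any single array other than wild-type heat replicate 2 and knockout heat replicate 1 ended it too.

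Taken by genotype, no UGT gene passed for heat in wild type (0 of 27 by limma, 6 of 27 or 22.2% at an unadjusted p under 0.05), where 2.55% of all probe sets passed, and 16.9% at the unadjusted threshold. In the knockout UGT76C1, UGT76E11 and UGT73C1 passed, 3 of 27 or 11.1%, against 6.78% of all probe sets. By direction, 2 rose (3.13% of all did) and 1 fell (3.66% of all did). UGT73C1 entered this test through its heated arrays, and 2 of 26 passed without it (7.69%), 1 in each direction. The knockout count came to 0 with no filter on dim probe sets, where 3.32% of all passed. It came to 1 without wild-type control replicate 1 (5.41% of all) and to 0 or 1 without any single knockout array (1.44% to 1.76% of all). A call in 1 genotype and not in the other does not show a difference, and none of the 27 genes passed in the interaction, which tests that difference (limma, 0 at an unadjusted p under 0.05). HSA32 itself did not pass in the interaction (-6.39 ± 0.80, limma adjusted p = 0.42), so 0 calls there do not show equal responses. Heated and control arrays did not overlap for 8 of 27 genes in wild type, 3 higher and 5 lower, where 13.0% and 30.5% of all probe sets did so. In the knockout 9 of 27 were higher and 7 lower without overlap, against 18.0% and 40.9% of all. The median log2 change of the 27 genes was -0.05 in wild type and 0.01 in the knockout, beside -0.22 and -0.26 for all probe sets tested. The wild-type and knockout changes, which share no array, had the same sign for 21 of 27 genes (77.8%), and for 82.9% of all probe sets tested. Without wild-type replicate 1, the knockout count became 6, with UGT71C5, UGT72E1 and UGT85A2 added, where 15.2% of all probe sets passed. The wild-type count became 1 (UGT73C1, 5.52% of all probe sets), and it sets 1 array against 1 with spread taken from the knockout arrays.

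**Figure D2:**
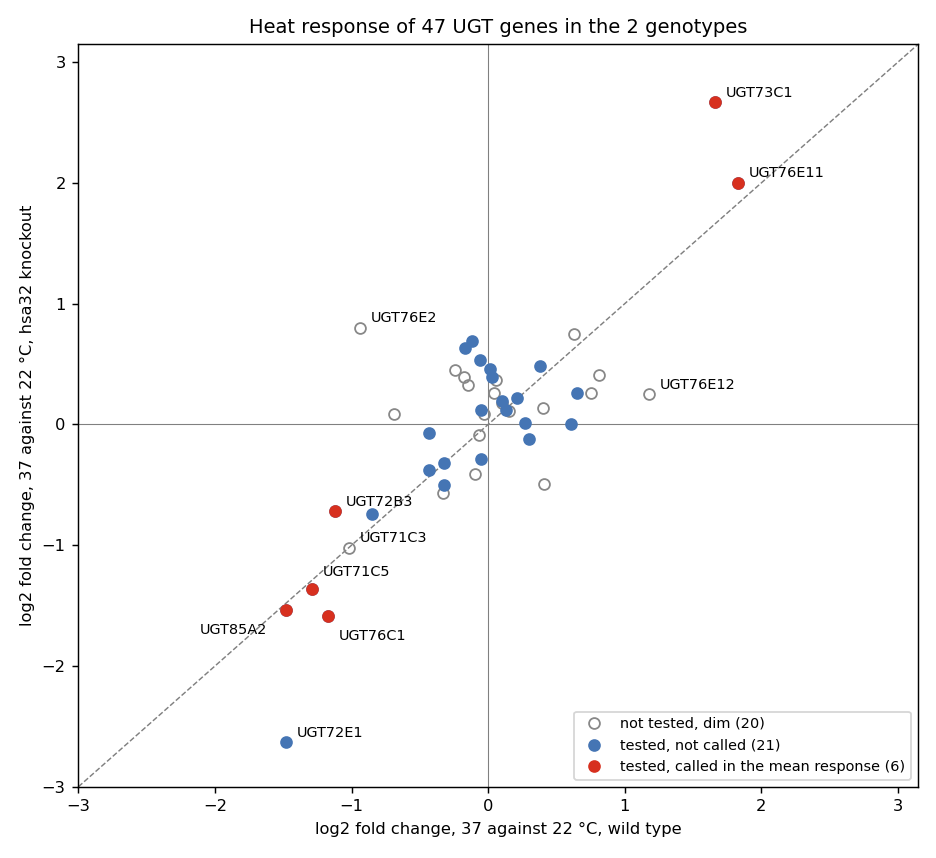
Log2 fold change of each of the 47 UGT genes for heat in wild type (horizontal) and in the hsa32 knockout (vertical), on the offset scale. Red points passed in the mean response (6), blue points were tested and did not (21), open points were too dim to be tested (20), and the dashed line marks equal change. UGT73C1 (1.66 and 2.67) and UGT76E11 (1.83 and 2.00) lie at the upper right and UGT72E1 (-1.48 and -2.63) at the lower left.

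Genes of monolignols and sinapate, the precursors of lignin and of sinapate esters, were 6, of which 4 were tested. In the mean response 0 of these 4 passed, where 17.3% of all probe sets did. UGT72E1 (AT3G50740), which glucosylates lignin precursor aldehydes, had the widest spread between replicates of the 27 genes in wild type. It read 397 and 2615 in wild-type controls, 147 and 791 in heated wild type, 3159 and 1802 in knockout controls and 409 and 321 in the heated knockout. Wild-type replicate 1 was the lower array at both temperatures, and PYK10 and BCAT4 were low on the same 2 arrays; their part in this value was not tested. The mean change of -2.05 ± 0.63 did not pass (limma adjusted p = 0.057), but the gene passed with an offset of 116. Without those 2 arrays it was -2.16 and passed (adjusted p = 0.0017). UGT72E2 (AT5G66690), which acts on the alcohols, read 165 and 192 in wild-type controls, 164 and 175 in heated wild type, 112 and 106 in knockout controls and 179 and 162 in the heated knockout. Its knockout controls were the lowest arrays, and its mean heat change of 0.23 ± 0.21 did not pass. UGT84A3 (AT4G15490), an ester-forming enzyme of sinapate and other hydroxycinnamates, read 592 and 453 in wild-type controls, 1399 and 487 in heated wild type, 411 and 437 in knockout controls and 464 and 565 in the heated knockout. Wild-type heat replicate 1 stood far above the other arrays, and the mean change of 0.45 ± 0.33 did not pass. UGT84A4 read 86.4 to 140.2 in controls and 128 to 133 after heat. UGT72E3 (7.80 to 49.0 over the 8 arrays) and UGT84A1 (4.1 to 12.3), which act on the same kinds of acceptor, were dim and not tested.

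Flavonoid genes were UGT78D1, UGT78D2 and UGT78D3, which add rhamnose, glucose and arabinose to flavonols. UGT78D2 (AT5G17050) read 324 and 233 in wild-type controls, 293 and 456 in heated wild type, 241 and 235 in knockout controls and 296 and 400 in the heated knockout. Its mean change of 0.43 ± 0.25 did not pass (limma adjusted p = 0.26). UGT78D1 (AT1G30530) read 236 and 164 in wild-type controls, 96.4 and 316 in heated wild type, 137 and 186 in knockout controls and 273 and 280 in the heated knockout. Its arrays overlapped in wild type and not in the knockout, where the change of 0.69 ± 0.47 did not pass (limma adjusted p = 0.41). UGT78D3 read 2.90 to 72.6 over the 8 arrays and was not tested. DFR, an enzyme of anthocyanin synthesis and 1 tested of 12 listed flavonoid genes, had a mean change of 0.20 ± 0.23 and did not pass.

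The remaining roles had at most 1 tested gene each and no further call in the mean response. There 17.3% of all probe sets passed, so the lack of a call says little about these roles. UGT74D1 (AT2G31750), an enzyme of oxidised auxin, read 1473 and 1004 in wild-type controls, 1844 and 1222 in heated wild type, 590 and 1339 in knockout controls and 642 and 1046 in the heated knockout. Its replicates differed more than its temperatures did, and the mean change was 0.09 ± 0.34. UGT74B1 (AT1G24100), which attaches the glucose of glucosinolates, read 565 and 593 in wild-type controls, 505 and 980 in heated wild type, 398 and 713 in knockout controls and 430 and 676 in the heated knockout. Its groups overlapped in both genotypes, and the mean change was 0.14 ± 0.31. UGT80B1 (AT1G43620), a sterol glucosyltransferase known from the seed coat, read 167 and 241 in wild-type controls, 134 and 180 in heated wild type, 222 and 220 in knockout controls and 204 and 105 in the heated knockout. Its arrays overlapped in wild type and not in the knockout, and the mean change of -0.41 ± 0.26 did not pass. UGT76D1 (AT2G26480), which acts on dihydroxybenzoic acids, read 108 and 58.7, 54.8 and 104, 94.0 and 71, and 126 and 64.5 in the same order of groups, with a mean change of 0.03 ± 0.30 and overlap throughout. The salicylate gene UGT74F1 (8.10 to 45.9), the defence-linked UGT76B1 (2.1 to 72.6), the auxin gene UGT84B1 (8.90 to 59.4) and the jasmonate genes UGT76E1 (2.80 to 11.9) and UGT76E2 (9.0 to 105) were dim and not tested. UGT73B4 (3.20 to 11.9), UGT73B5 (2.40 to 48.2) and UGT73C2 (3.1 to 34.8), listed with UGT73C1 for oxidative and xenobiotic responses, were dim as well.

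The 5 genes with the highest control signal were UGT88A1, UGT71C4, UGT72E1, UGT74D1 and UGT73B1, though signals of different probe sets do not rank transcript levels. UGT88A1 (AT3G16520) read 6364 and 3680 in wild-type controls, 4218 and 5624 in heated wild type, 3691 and 2892 in knockout controls and 4962 and 4115 in the heated knockout, a mean change of 0.24 ± 0.26 without a call. The heated arrays were the higher pair in the knockout and overlapped the controls in wild type. UGT71C4 (AT1G07250) read 2050 and 2449 in wild-type controls, 1754 and 2653 in heated wild type, 2466 and 1798 in knockout controls and 1833 and 1600 in the heated knockout, with overlap in both genotypes and a mean change of -0.17 ± 0.25. UGT73B1 (AT4G34138) read 1984 and 624 in wild-type controls, 2028 and 476 in heated wild type, 232 and 885 in knockout controls and 460 and 1137 in the heated knockout. Within each group its 2 arrays differed more than 2-fold, and its mean change was 0.23 ± 0.61.

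Responses were spread out within some families of several genes and close together within others, and most of these ranges include dim genes that were not tested. All 5 genes of UGT71C had a negative change in both genotypes. The median of all probe sets tested was also negative (-0.22 in wild type and -0.26 in the knockout). Mean responses of the 5 genes ran from -1.32 (UGT71C5) to -0.08 (UGT71C1). Under median centring UGT71C1 (0.20) and UGT71C4 (0.11) turned positive, and only UGT71C5 and UGT71C4 were tested. UGT71C1 (6.30 to 11.9) and UGT71C2 (22.9 to 85.8) were dim, as was UGT71C3, reading 90.4, 44.6, 25.9 and 77.3 in the controls and 5.10, 33.1, 7.30 and 10.1 after heat. All 5 genes of UGT85A were tested and ranged from -1.51 (UGT85A2) to 0.30 (UGT85A3), with UGT85A4 at -0.79, UGT85A5 at -0.41 and UGT85A7 at 0.12. UGT85A4 read 256 and 997 in wild-type controls, 478 and 947 in knockout controls and 208 to 443 after heat, and it did not pass over all arrays (limma adjusted p = 0.23) but did without wild-type replicate 1 (-1.09, adjusted p = 0.04). Only UGT76E11 was tested of the 4 genes of UGT76E. They ranged from -0.07 (UGT76E2) to 1.91 (UGT76E11), with UGT76E12 at 0.71 and UGT76E1 at 0.13. Those of UGT71B lay between -0.25 and 0.27, those of UGT84A between 0.14 and 0.45 and those of UGT78D between 0.29 and 0.51, positive under all 3 scalings. UGT73C, with only UGT73C1 tested, ranged from -0.04 to 2.16. UGT72E ranged from -2.05 to 0.23, UGT73B from -0.30 to 0.23 and UGT84B, with no gene tested, from 0.11 to 0.22. UGT87A2, the single gene of its family, read 655 to 834 in controls and 486 to 656 after heat (-0.32), and UGT73D1, also single, was dim at 6.80 to 55.6 (0.09). Centring each array on its median raised the mean response of all probe sets by 0.28 and quantile scaling by 0.17, and 6 and 3 of the 47 genes then changed sign, so a change near 0 has no settled direction.

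**Figure D3:**
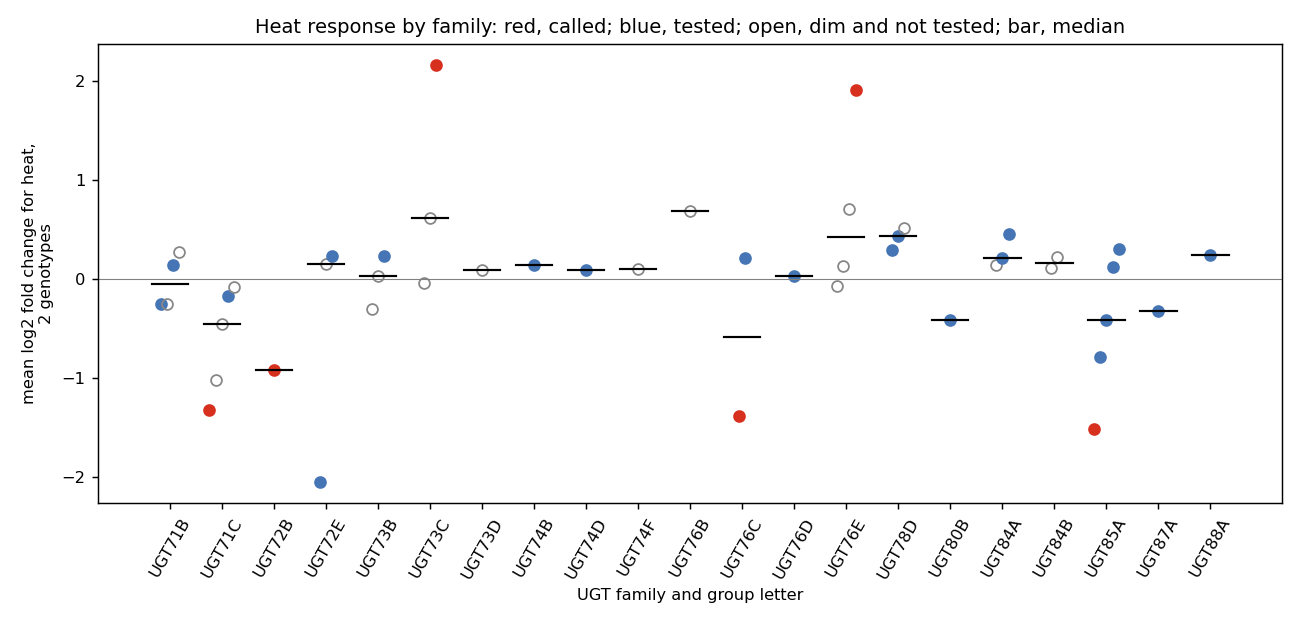
Mean log2 fold change for heat over both genotypes (vertical, offset scale) for each of the 47 UGT genes, arranged by the 21 families. Red points passed, blue points were tested without passing, open points were too dim to be tested, and bars are family medians. UGT71C, UGT76C and UGT85A each hold 1 called gene and at least 1 tested gene without a call, as in UGT76C (-1.38 and 0.21). In UGT73C and UGT76E the called gene was the only one tested.

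Many UGT genes lie beside a relative. In RefSeq gene order 30 of the 47 genes formed 17 pairs of neighbours with no more than 1 protein-coding gene between them, and in 6 pairs both genes were tested. The difference in heat response within a pair was tested with a two-sided exact permutation test over the 8 arrays, which cannot go below p = 0.029, adjusted over the 6 pairs. By this exact test UGT76C2 lay 1.59 above UGT76C1 (p = 0.029, adjusted p = 0.086), and UGT71C5 lay at -1.15 relative to UGT71C4 (p = 0.029, adjusted p = 0.086). UGT85A7 lay 1.63 above its neighbour UGT85A2 (exact p = 0.057, adjusted p = 0.11). UGT85A2 lay at -1.1 relative to UGT85A5, UGT85A5 at -0.71 relative to UGT85A3, and UGT84A3 0.24 above UGT84A4, with adjusted p from the same exact test of 0.17, 0.34 and 0.60. No pair passed after adjustment. UGT76C2 with UGT76C1 and UGT71C5 with UGT71C4 already lay at the smallest p of this test. Given the p-values of the other pairs, they could not have passed after adjustment, however large their difference. The test therefore could not decide whether these neighbours differ. Without wild-type replicate 1 the differences came to 1.85, -1.17 and 1.84 for the first 3 pairs, where the exact test cannot go below 0.1. Near-identical copies can share probes, and the reach of each probe set was not analysed here.

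**Figure D4:**
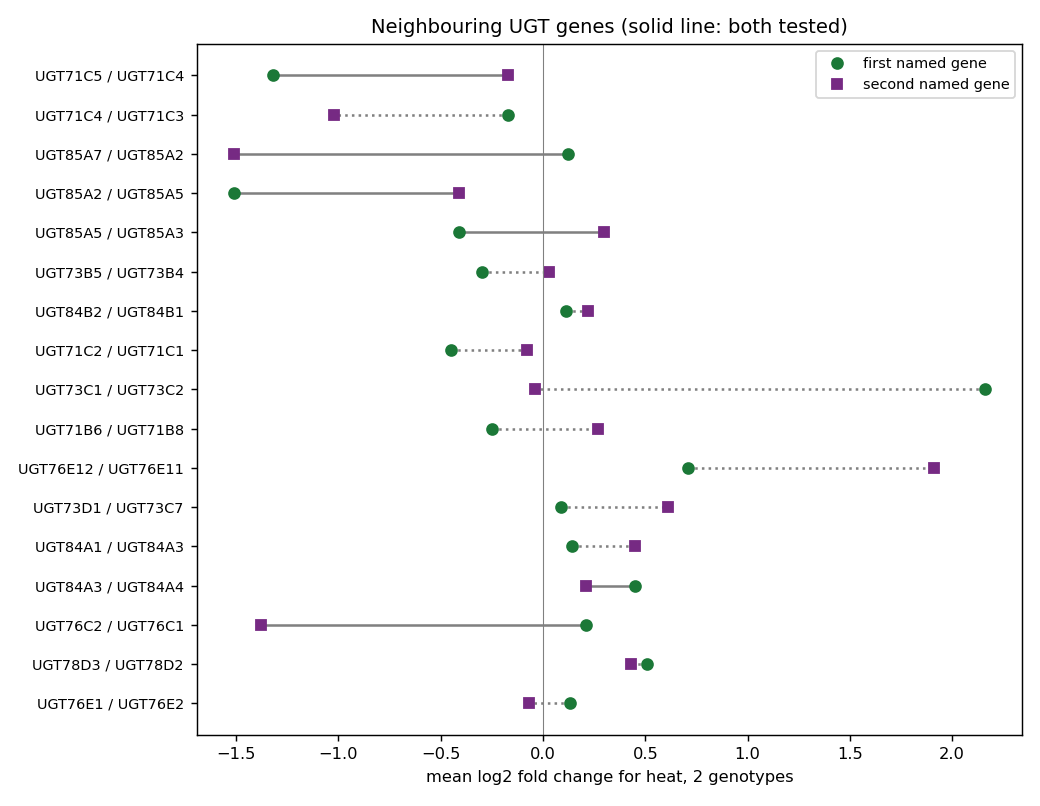
Mean log2 fold change for heat over both genotypes (horizontal, offset scale) of the 17 pairs of neighbouring UGT genes. Circles are the first gene of a pair and squares the second, solid lines join pairs with both genes tested and dotted lines the others. The gaps between UGT76C2 and UGT76C1 (0.21 and -1.38) and between UGT85A7 and UGT85A2 (0.12 and -1.51) are the widest among the solid lines.

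The knockout was then set against wild type. At 22 °C none of the 27 genes passed in limma (0 at an unadjusted p under 0.05), and of all probe sets 0% passed and 0.515% reached the unadjusted threshold. The smallest p-values belonged to UGT72E2 (-0.58 ± 0.30), UGT88A1 (-0.56 ± 0.37) and UGT71B1 (-0.65 ± 0.44), each with limma adjusted p = 1. UGT72E2 read 165 and 192 in wild type and 112 and 106 in the knockout, without overlap. UGT71B1 (AT3G21750), with no acceptor listed here, read 342 and 140.2 in wild-type controls, 264 and 216 in heated wild type, 108 and 156 in knockout controls and 116 and 199 in the heated knockout, so that the control groups overlapped. UGT88A1 and UGT71B1 came to -0.17 and -0.08 without wild-type replicate 1. Control arrays of the genotypes did not overlap for 7 of 27 genes, 2 higher and 5 lower in the knockout, where 11.7% and 9.49% of all probe sets did so.

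After heat 0 of 27 genes passed in limma, also at an unadjusted p under 0.05, and of all probe sets 0% passed and 1.76% reached the unadjusted threshold. UGT71B5 (AT4G15280), with no acceptor listed here, read 56.1 and 23.4 in heated wild type and 97.6 and 77.8 in the heated knockout (0.80 ± 0.38, limma adjusted p = 1). It was also higher in knockout controls, at 105 and 82.7 against 75.8 and 47.9. UGT74D1 lay at -0.85 ± 0.47 and UGT73C1 at 1.06 ± 0.61, the latter at 0.07 without wild-type replicate 1. Arrays did not overlap for 2 genes higher (UGT71B5 and UGT76C2) and 2 lower (UGT71B1 and UGT74D1), 7.41% each, beside 9.94% and 11.5% of all probe sets. In the interaction, where 0% of all probe sets passed and 0.553% reached the unadjusted threshold, the smallest p-values were those of UGT72E2 (0.59 ± 0.42), UGT85A3 (-0.61 ± 0.49) and UGT78D1 (0.81 ± 0.67), each with limma adjusted p = 1. The value of UGT78D1 was -0.14 without wild-type replicate 1, and that of UGT85A3 was -0.10. UGT85A3 read 78.0 and 133 in wild-type controls and 203 and 144 after heat there, and 118 to 154 on the 4 knockout arrays. With 2 arrays a group, a difference of the size of these standard errors could not be told from replicate spread. Far larger differences also went without a call. HSA32, the targeted gene, lay at -4.87 ± 0.57 between the genotypes after heat (limma adjusted p = 0.23) and at -6.39 ± 0.80 in the interaction (adjusted p = 0.42). The counts of 0 therefore do not show that the genotypes were alike.

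Other genes of the same pathways gave little more. In the mean response REF1, the aldehyde dehydrogenase that makes sinapate and ferulate, fell by 0.93 ± 0.26 on the log2 scale (limma adjusted p = 0.042), from 1757 to 2804 in the controls to 1052 to 1618 after heat. It was 1 of 2 tested among 20 phenylpropanoid genes, and HCT, a transferase of monolignol synthesis, did not pass (0.36 ± 0.33). BCAT4, 1 tested of 17 glucosinolate genes, had 0.85 ± 0.87 (limma adjusted p = 0.53), and 1.12 without wild-type replicate 1 (adjusted p = 0.016). None of 11 hormone genes and no transporter of the ABCC or DTX groups had a named probe set. Glutathione transferases, which join foreign compounds to glutathione, had 0 of 8 tested genes called in the mean response, where 17.3% of all probe sets passed, and a median of 0.26, with GSTU18 at 0.78 ± 0.29, GSTU27 at -0.75 ± 0.28 and GSTL3 at 0.65 ± 0.25. Without wild-type replicate 1, GSTU18 (1.1) and GSTU20 (1.48) passed (limma adjusted p = 0.024 and 0.0061), where 23.7% of all probe sets did. Beta-glucosidases, which remove glucose again, had 0 of 12 called against the same 17.3% of all (median -0.06), with BGLU33 at -1.53 ± 0.50 (limma adjusted p = 0.068), and at -2.03 without wild-type replicate 1 (adjusted p = 0.0054). BGLU16 and BGLU44 had 0.76 ± 0.32 and -0.56 ± 0.37.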

How the data were processed

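Each array's deposited file gives a linear intensity for every probe set, made by the authors with software not given in the sources used here. Groups and replicate numbers came from the sample titles, and the labels do not say that equal numbers pair arrays across groups. After leaving out 64 control probe sets and the 30% with the lowest mean (61.7 or less), 15919 of 22810 were tested. Values entered limma 3.58.1 under R 4.3.3 as log2(signal + 29.1), with all 4 groups in a group-means model, eBayes with trend, 4 residual and 4.79 prior degrees of freedom, and 6 contrasts. P-values were two-sided, adjusted by Benjamini-Hochberg over every tested probe set, and called at 0.05. Errors of changes are standard errors, and the number of arrays limits precision. The fit was tested on simulated data. Gene names came from the platform annotation (13513 probe sets with 1 gene, 503 with several, 8730 unnamed), and all 47 symbols were found in RefSeq. A further 3 probe sets that read a UGT gene together with another gene were left out.

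The family, the gene lists and the roles were chosen with earlier results of these data known. Genes were named by a fixed rule: those that passed, the 3 smallest p-values where none passed, the 5 highest control signals and up to 3 per role. Genes described by family or as neighbours fall outside it. Alternatives covered the offset, the filter, scaling, moderation, a replicate block and arrays left out. Protein and promoter sequences were not used here.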

Additional observations from a re-analysis of the deposited data

Results flagged for a closer look

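UGT84B2 (AT2G23250) moved in opposite directions with heat in the 2 genotypes, with no overlap of arrays in either. It read 6.30 and 5.80 in wild-type controls and 1.80 and 2.20 after heat, against 6.50 and 2.30 in knockout controls and 24.2 and 7.10 after heat. The interaction came to 0.57 on the offset scale. The wild-type change of -0.18 turned to 0.08 under median centring. Every one of these signals lay below the offset of 29.1, the gene was too dim to be tested, and the difference was not tested.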

How the results depend on the processing

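Over 19 alternatives, UGT76E11 (1.29 to 2.20) and UGT76C1 (-1.59 to -0.92) kept their call in the mean response throughout. UGT73C1 (1.04 to 3.41) lost it without knockout control replicate 2 and was not among the genes tested when the dimmest 50% were left out. UGT85A2 lost it in 3, UGT71C5 in 7 of 19 and UGT72B3 in 11 of the 18 in which it was tested, with the same sign in each. The knockout count of 3 became 0 with no filter (3.32% of all probe sets passed) and 6 with a crossed replicate block (18% of all). The wild-type count of 0 became 1 under quantile scaling (2.68% of all) and 1 under median centring (2.56% of all). With the crossed block it became 2 (UGT76C1 and UGT76E11), where 8.83% of all probe sets passed. Leaving out 1 array gave 0 to 1 calls in wild type, 0 to 5 in the knockout and 2 to 7 in the mean response (2 without knockout control replicate 2, 3 without wild-type control replicate 2). With a knockout array left out the knockout count was 0 or 1. With the labels' numbers as a replicate block the counts were 0, 2 and 5, where 1.82%, 4.24% and 13.9% of all probe sets passed. The knockout calls were then UGT73C1 and UGT85A2, with UGT76C1 (adjusted p = 0.058) and UGT76E11 (0.062) lost, and the mean response lost UGT72B3 (0.065). The labels do not say that equal numbers pair arrays. Deviations of same-numbered arrays correlated at 0.54 within wild type and 0.52 within the knockout but at -0.39 to -0.24 between genotypes, which is what the crossed block, chosen after seeing the data, was drawn from. Over all probe sets, 406 calls in wild type, 1080 in the knockout and 2751 in the mean response became 1406, 2860 and 5155 with the crossed block, and 878, 2424 and 3771 without wild-type replicate 1. With 1 array left out they ran from 160 to 1314, 230 to 2000 and 1176 to 4202, and the replicate block gave 675 in the knockout.

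The median of the 27 genes moved to 0.25 in the knockout under quantile scaling, and to 0.20 in wild type, 0.32 in the knockout and 0.40 in the mean response under median centring. With 1 array left out it ran from -0.19 to 0.11, from -0.10 to 0.22 and from -0.11 to 0.17, in that order of contrasts. The interaction of UGT78D1 turned to -0.14 without wild-type replicate 1, and ran from 0.09 to 1.54 with single arrays left out. No gene of the family passed between genotypes or in the interaction under any alternative run. In the main fit 0% of all probe sets tested passed there either, so this says little about the family. Averaging probe sets of a gene and leaving out shared probe sets were not run, since each gene had 1 probe set and 0 of them had a name that marks sharing. Causes of these moves were not tested.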

Other observations

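RefSeq synonyms place 4 more array genes in the family under other symbols. UF3GT (UGT79B1, AT5G54060), which extends the sugar chain of anthocyanins, was dim and not tested; it read 42.6 and 50.9 in wild-type controls, 27.5 and 24.7 after heat, 96.9 and 59.5 in knockout controls and 16.0 and 15.0 in the heated knockout. Its heated arrays lay below its control arrays in both genotypes (mean log2 change -0.85, and limma adjusted p = 0.038 with no filter on dim probe sets). SGT (UGT80A2, AT3G07020), a sterol glucosyltransferase, had a mean change of -0.67 ± 0.27 (limma adjusted p = 0.12), and GT72B1 (UGT72B1, AT4G01070), which acts on chlorinated phenols and monolignols, had 0.62 ± 0.29 (limma adjusted p = 0.18, and 0.023 without wild-type replicate 1). AT5G54010 (UGT79B6) read 2.90 to 17.5 on the 8 arrays.

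Among dim genes of the family, UGT73C7 (AT3G53160) read 7.90 and 6.50 in wild-type controls and 26.7 to 58.9 on the other 6 arrays. UGT76E12 (AT3G46660), beside UGT76E11, read 1.70 and 5.20 in wild-type controls and 66.3 and 27.7 after heat, but 6.90 and 41.8 in knockout controls and 64.4 and 9.30 after heat. UGT76E2 (AT5G59590), a jasmonate gene, read 87.8 and 77.7 in wild-type controls and 42.3 and 18.4 after heat, but 9.0 and 54.9 in knockout controls and 105 and 42.6 after heat, with overlap in the knockout. These 3 were chosen after their values were seen and were not tested.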
